A study of Capra hircus with 2 samples.

Results

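The miRNAs miR-424, miR-503, miR-450a, miR-450b and miR-542 are encoded close together on the X chromosome of mammals, and miR-322 is the rodent counterpart of miR-424. Cluster members were taken by name from the table of known miRNAs: every name of miR-424, miR-322, miR-503, miR-450, miR-450a, miR-450b, miR-542 or miR-351, of any species, arm or end annotation, with repeated names counted once. This gave 6 of 587 names, of which 3 were of miR-424, 2 of miR-503 and 1 of miR-450a. No listed name was of miR-450b or miR-542, so their levels were not analysed here.

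Small RNA of the endometrium of Xinong Saanen dairy goats was sequenced at the pre-receptive phase (P, gestational day 5) and at the receptive phase (R, gestational day 15). All animals were multiparous, 24 months old, estrous synchronized and naturally mated. RNA of several goats was mixed into pools that, by the study's methods, were sequenced repeatedly, but each phase has 1 value per miRNA, called a library here, and variation between goats or pools could not be measured. The known miRNAs summed to 1904242 reads for R and to 4046632 for P.

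A miRNA hairpin gives a mature strand from each of its arms, 5p and 3p, and the strand that is kept pairs with target mRNAs mainly through its seed, bases 2 to 8. miR-424 and miR-503 belong by their 5p seeds to the extended miR-15/16 group, known for repressing cell cycle genes such as cyclins D1 and E1. Hairpins made from 1 primary transcript can still differ in processing and in the stability of each strand. In the gene annotation of the goat assembly ARS1.2, MIR450, MIR542 and MIR424 followed each other on chromosome X with no other annotated gene between them. No gene was listed there under the symbol MIR503, and the place of miR-503 in the goat genome was not analysed further.

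The mature sequences show which members can share targets. Sequences are given 5′ to 3′ as listed in the known miRNA table, with the seed in capitals. In a name, the prefix is the species of the matching database entry, L and R mark bases lost or gained at the left and right end, and ss marks a substitution. The first set carried the seed of miR-424-5p, and holds 1 cluster member and 4 names from outside the cluster.

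hsa-miR-424-5p_R-1: cAGCAGCAattcatgttttga
oar-miR-16b_R+2: tAGCAGCAcgtaaatattggag
oan-miR-15a-5p: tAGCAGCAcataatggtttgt
bta-miR-15b: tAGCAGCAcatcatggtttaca
hsa-miR-195-5p_R-1_1ss16AG: tAGCAGCAcagaaatgttgg

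The other 5 members each had a seed that no other known name carried, and miR-450c, a relative of miR-450a that the name rule did not take, is set beside them.

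mmu-miR-503-5p: tAGCAGCGggaacagtactgcag
bta-miR-424-5p_L-1R-2_1ss19TA: aGCAGCAAttcatgttta
hsa-miR-424-3p: cAAAACGTgaggcgctgctat
bta-miR-503-3p_R-2: gGAGTATTgtttctgctgccc
mmu-miR-450a-1-3p_L+1R-2_1ss4TC: tATCGGGAacattttgcataa
eca-miR-450c_1ss20TA: tTTTGCGAtgtgttcctaaaac

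The 5p strands of miR-424 and miR-503 had AGCAGC in common, at positions 2 to 7 of each, and parted at the last seed base. The shorter miR-424-5p variant matched the main form over 17 bases but began 1 base later, which moved its seed. Neither the 3p strand of miR-424 nor that of miR-503 shared more than 5 bases in a row with a 5p strand.

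miR-424-5p was by far the most abundant member in both libraries. Its normalized value was 1666 in R (1937 reads) and 2065 in P (1776 reads), and it ranked 65 among the known names in R and 54 in P. miR-424-3p had a normalized value of 161 in R (187 reads) and 127 in P (109 reads). miR-424-5p held 89.1% of the cluster's reads in R and 93.0% in P, so that the cluster's total was mostly a reading of this strand.

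miR-503 was much scarcer. miR-503-5p had a normalized value of 26.7 in R (31 reads) and 5.81 in P (5 reads), and ranked 243 in R and 321 in P. miR-503-3p had 14.6 in R and 19.8 in P, with 17 reads in each library. The 5p strand thus had more reads than the 3p strand in R and fewer in P.

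The remaining members were at the limit of detection. The miR-424-5p variant, listed for 2 precursors, had 1 read in R and 2 reads in P, while miR-450a-3p, also as a variant, had 0 reads in R and 1 read in P. miR-450c had 2 reads in each library. No fold was formed for these names, since neither library passed the floor of 3 reads, which equals a normalized value of 2.58 in R and 3.49 in P.

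**Figure D1:**
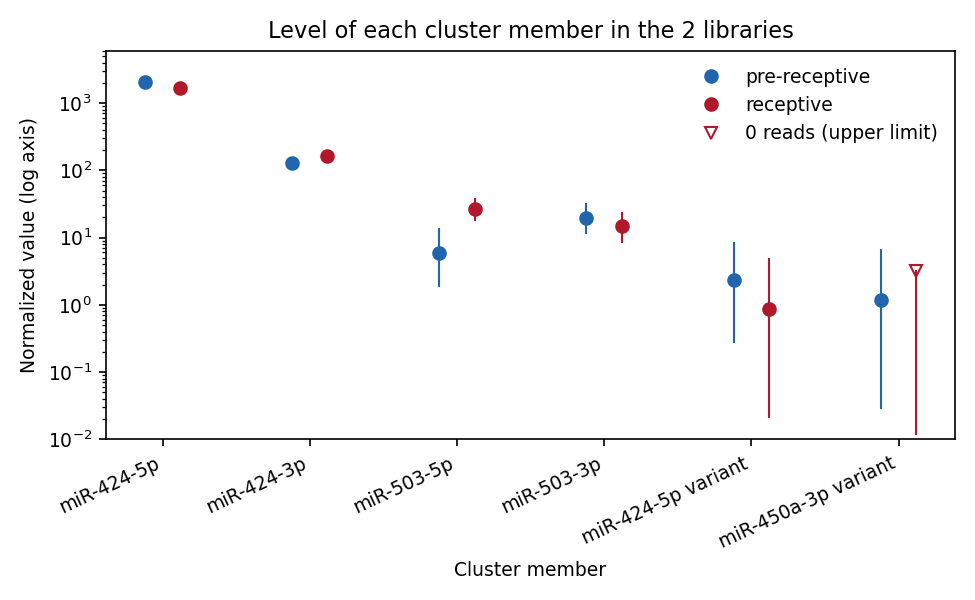
Normalized value of each cluster member (log axis) in the pre-receptive (blue) and receptive (red) library, with exact 95% Poisson intervals of the reads; the miR-424-5p variant is drawn at the sum of its 2 entries, and the open triangle is the upper limit for 0 reads. miR-424-5p lies highest in both libraries, and miR-503-5p is the member with the widest gap between libraries among those above the floor.

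As a share of all known miRNA reads, miR-424-5p made up 0.102% of the R reads (0.0972 to 0.106, 95% exact interval), but 0.0439% of the P reads (0.0419 to 0.0460). miR-424-3p made up 0.00982% in R (0.00846 to 0.0113) and 0.00269% in P (0.00221 to 0.00325). These shares placed both miR-424 strands above both miR-503 strands in each library, with intervals that did not overlap. miR-503-5p made up 0.00163% in R (0.00111 to 0.00231) and 0.000124% in P (4.01e-05 to 0.000288). miR-503-3p made up 0.000893% in R (0.000520 to 0.00143) and 0.000420% in P (0.000245 to 0.000673). The intervals of the miR-503 strands overlapped in each library, and their order within a library is given with the balance of the arms. Intervals and tests on reads covered counting error only, and compared these 2 libraries and not the phases.

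Between the libraries, miR-503-5p was the 1 member called with the deposited values; with clean reads 2 members were called (miR-424-3p also) and with listed known reads 3 (miR-424-5p as well), all higher in R. A known miRNA was called when Fisher's exact test (two-sided, reads against the remaining clean reads) gave P under 0.05, the ratio of normalized values passed 2-fold, and both values were above 0 with the larger one at 1 or more. Under each other scaling only the ratio was recomputed, and the Fisher's exact P stayed that on clean reads. Of the 6 members 5 passed the limits on low values, and 1 was called higher in R and 0 lower, against a background of 19.2% of 438 names called higher and 8.45% called lower. By the 2-fold limit alone, 23.7% of the 384 names above the floor in 1 library or both were higher and 15.6% lower, and of the 4 members above it 1 was higher (miR-503-5p) and 0 lower. With so few members these counts were near the background and say nothing particular of the cluster.

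On the log2 scale, miR-503-5p had a ratio of 2.20 (95% exact interval 0.82 to 3.92, a fold of 4.58). Fisher's exact test, which compares the share of clean reads, gave P = 2.35e-07 (adjusted over all 438 names, 7.05e-07), and an exact binomial test on the deposited scale gave P = 3.09e-04. For miR-424-3p the log2 ratio was 0.34 (-0.01 to 0.70), and for miR-503-3p -0.44 (-1.49 to 0.62, Fisher's exact P = 0.494). For miR-424-5p it was -0.31 (-0.40 to -0.22). On the deposited scale the members therefore spread from slightly lower to several-fold higher in R, and the cluster did not show 1 common ratio.

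The sign of the smaller ratios depended on how the libraries were scaled. The study's methods describe a division by clean reads, which the deposited values do not follow. The median log2 ratio of all names tested was 0.03 with the deposited values, 0.81 when reads were divided by clean reads and 1.55 when divided by the listed known reads. The ratio of miR-424-5p became 0.47 with clean reads and 1.21 with listed known reads, a turn from lower to higher in R, and its Fisher's exact P of 2.31e-23 belongs to the higher share of clean reads. An exact binomial test on the deposited scale gave P = 6.62e-11 for the lower value, and P = 0.0522 for miR-424-3p. miR-503-3p turned likewise, to 0.35 and 1.09, and miR-424-3p moved past 2-fold, to 1.13 and 1.87, which made it called (Fisher's exact P = 4.74e-11). The background moved too, to 36.1% of names called higher with clean reads and 47.9% with listed known reads. Set against the median of all names, which removes the scaling, miR-424-5p lay 0.34 below and miR-503-3p 0.46 below on the log2 scale, whereas miR-424-3p lay 0.31 above and miR-503-5p 2.17 above.

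**Figure D2:**
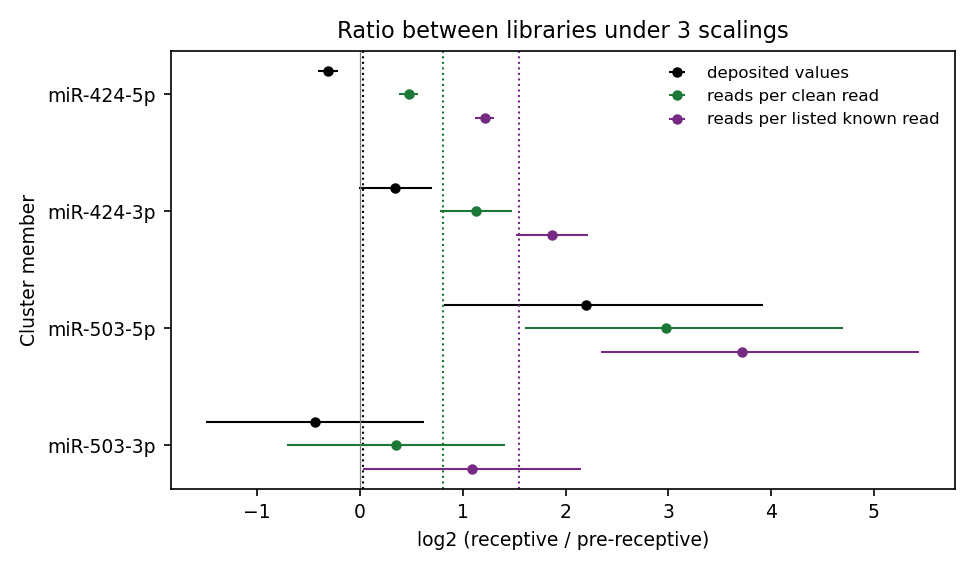
log2 ratio of the receptive to the pre-receptive library for the 4 members above the floor, with 95% exact intervals, under 3 scalings (colours); dotted lines mark the median of all 438 names under each. miR-503-5p lies right of 0 and of the median under each scaling, whereas miR-424-5p is left of 0 with the deposited values, right of 0 with the other scalings and left of the median in each.

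Differences between members do not depend on scaling, because both reads of a pair come from the same libraries. Among the 10 pairs of the 5 members with at least 3 reads, 4 differed at an adjusted P under 0.05 (Fisher's exact test, Benjamini-Hochberg over the pairs), all among the 6 pairs of members above the floor. The share of differing pairs among other known names was not computed. The count is therefore a description and is not shown to be particular to the cluster. The 4 pairs with the miR-424-5p variant were used in the adjustment, and no ratio is given for them. The ratio of miR-503-5p exceeded that of miR-503-3p by 6.20-fold (95% interval 1.75 to 24.7, exact P = 0.00175, adjusted 0.00583). It also exceeded that of miR-424-5p and of miR-424-3p, with exact P-values adjusted over the pairs of 3.03e-04 and 0.0130. The 4th pair was within 1 hairpin, where the ratio of miR-424-5p was 0.636 times that of miR-424-3p (0.493 to 0.817, exact P = 2.73e-04, adjusted 0.00137). miR-424-5p and miR-503-3p, the members from different hairpins with the closest ratios, gave an exact P of 0.864, with an interval of -0.94 to 1.19 for their log2 difference that leaves room for about a 2-fold difference either way.

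Seen as the balance of the arms, the hairpins went opposite ways. The 5p strand of miR-503 made up 64.6% of the reads of both its strands in R (49.5 to 77.8, 95% exact interval), but 22.7% in P (7.82 to 45.4). The 5p strand of miR-424 made up 91.2% in R (89.9 to 92.4) and 94.2% in P (93.1 to 95.2). The 5p share was thus higher in R for miR-503 and lower in R for miR-424. For miR-503 the interval of the 5p share lay under 50% in P, where the 3p strand was the higher beyond counting error, and reached below 50% in R, where the order of the strands was not settled.

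Unequal arm balance between these libraries was not rare. Both arms were named, with at least 10 reads over both in each library, for 71 miRNAs, each arm taken by its most abundant name with an arm label. Of these, 17 had a further name without an arm label, which can be the main strand, and 11 others had an arm listed repeatedly or under several names, so that their reads are uncertain. Of the remaining 43, 16.3% differed at an adjusted P under 0.05, and both miR-424 (exact P adjusted over the 43, 0.00235) and miR-503 (0.0125) were among them. By the size of the difference in the log2 ratio of 5p to 3p reads, miR-503 ranked 2 and miR-424 ranked 25 of 43, and the median size was 0.70. Over all 71 the share was 21.1%. In 3 of the 71, miR-340, miR-455 and miR-503, the arm with more reads differed between the libraries, with the balance at an adjusted P under 0.05. miR-340 and miR-455 were among those left out of the 43. For miR-340 the 5p and 3p reads were 17 and 21 in R, and 34 and 4 in P. For miR-455 they were 677 and 861 in R, and 661 and 376 in P.

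**Figure D3:**
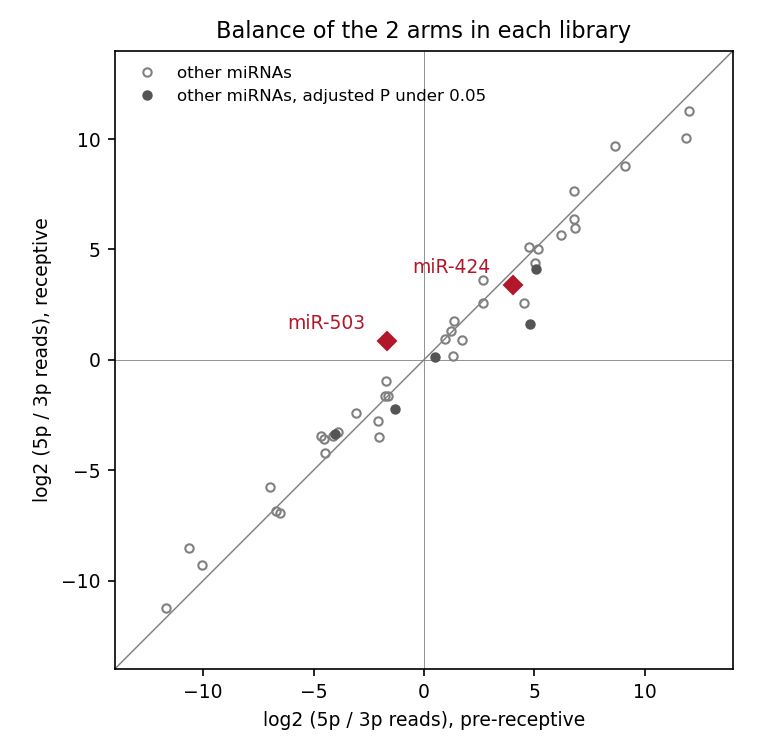
log2 ratio of 5p to 3p reads, with 0.5 added to each, in the pre-receptive (x) and receptive (y) library for 43 miRNAs; red diamonds are miR-424 and miR-503, and filled grey points are other miRNAs with an adjusted P under 0.05. miR-503 lies above the diagonal, in the corner with more 3p reads in P and more 5p reads in R (the latter within counting error), and miR-424 lies just under it.

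The names outside the cluster with the seed of miR-424-5p had ratios of their own. oar-miR-16b, the most abundant of them, had a normalized value of 7323 in R and 7470 in P, and oan-miR-15a-5p had 1050 in R and 703 in P. bta-miR-15b had 274 in R and 125 in P, and hsa-miR-195-5p had 24.9 in R and 44.2 in P. miR-424-5p gave 16.1% of the reads with this seed in R and 19.8% in P, second to miR-16b with 70.8% in R and 71.8% in P. Compared with miR-424-5p by Fisher's exact test, the R to P ratio was higher on the log2 scale by 0.28 for miR-16b (95% interval 0.18 to 0.39), by 0.89 for miR-15a-5p (0.72 to 1.06) and by 1.44 for miR-15b (1.10 to 1.78), with exact P-values adjusted over the 4 comparisons of 1.52e-07, 5.97e-25 and 3.02e-19. For miR-195-5p the log2 difference was -0.52 (-1.27 to 0.23, adjusted exact P = 0.175).

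Among these names miR-15b was the one called, as was miR-503-5p, which has the same bases 2 to 7. Their log2 ratios were 1.13 (0.81 to 1.46) and 2.20, the highest of those compared. Over all 10 names of the seed relatives miR-15a, miR-15b, miR-16, miR-16b, miR-195 and miR-497, both arms included, 1 was called higher (miR-15b) and 1 lower (miR-195-3p), where 19.2% and 8.45% of all names tested were, and their median log2 ratio was 0.06 against 0.03 over all names tested. For the seed relatives these directions hold with the deposited values. Dividing by clean reads adds 0.78 to each log2 ratio. miR-15a-5p, miR-15b-3p and miR-16-2-3p would then also be called higher, and miR-195-3p would lose its lower call. By clean reads 36.1% of all names tested were called higher and 4.34% lower.

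**Figure D4:**
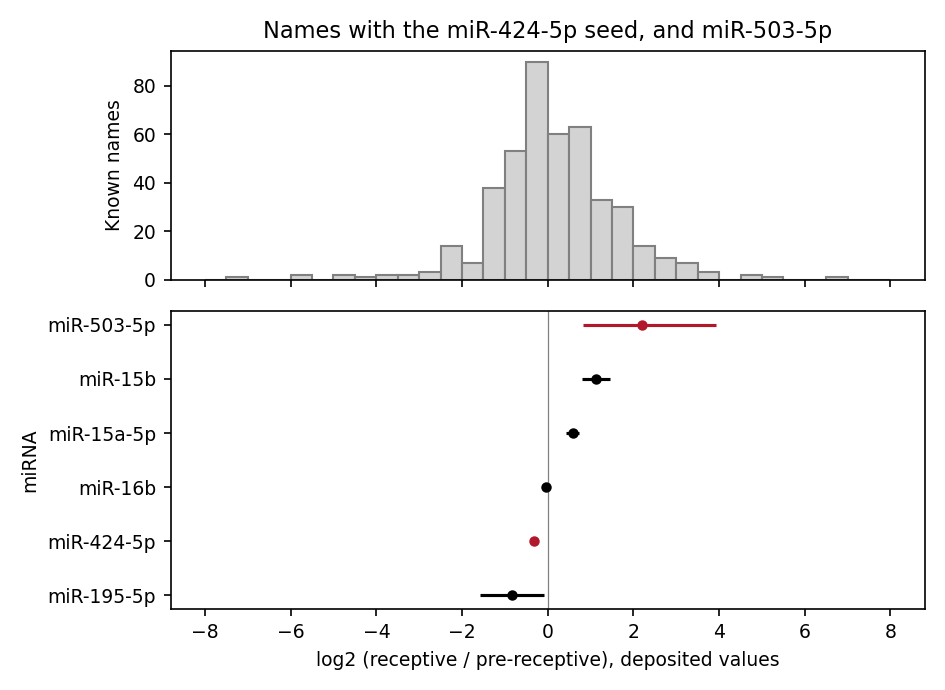
log2 ratio of the receptive to the pre-receptive library with the deposited values: above, the number of known names per bin of 0.5 over the 438 tested; below, names with the seed of miR-424-5p and miR-503-5p, with 95% exact intervals, cluster members in red. miR-424-5p lies between miR-195-5p and miR-16b, and miR-503-5p and miR-15b lie farthest right; dividing by clean reads moves each point right by 0.78, past 0 for miR-424-5p and miR-16b.

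Other miRNAs known from the X chromosome were given by 29 names. Of the 20 that passed the limits on low values, 1 was called higher in R and 2 lower, beside the 19.2% and 8.45% of all names tested, and their median log2 ratio was -0.27 with the deposited values. With clean reads it would be above 0. miR-222-3p, miR-504, miR-98-3p and miR-545-5p would then also be called higher, and miR-374a-3p would lose its lower call. Of all names tested, 36.1% were called higher and 4.34% lower with clean reads. The 3 known names with at least 100 reads in each library whose log2 ratio was nearest to that of miR-424-5p, among 147 candidates, were hsa-miR-652-3p_R+1 (-0.31), hsa-miR-181c-3p_L-1R+1 (-0.30) and oar-miR-655-3p (-0.32). With 2 libraries this likeness rests on 1 ratio and is a description.

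The libraries also differed in miRNAs that mark cell types, and fewer cells of a type and less RNA per cell cannot be told apart in bulk tissue. Epithelial markers (7 of 8 miRNAs listed, 11 names) summed to normalized values of 34866 in R and 6726 in P, most of it miR-141-3p, and 1 name was at 0 in P. Markers of ciliated epithelium (4 of 4, 8 names) summed to 4872 in R and 1234 in P, most of it miR-34c-5p, with 3 names at 0 in P. Of the names tested, 8 of 10 epithelial and 3 of 5 ciliated ones were called higher in R and 0 lower. Over all names tested, 19.2% were called higher and 8.45% lower.

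Markers of fibroblasts and smooth muscle (5 of 5, 11 names) summed to 389750 in R and 1976680.2 in P, most of it miR-143, and none was at 0. Without its leading name the sums were 100115 and 110406; the median log2 ratio of the list was -0.24, and the 4 of 11 names called lower were all of miR-143 and miR-145, beside 8.45% of all names tested. The other 7 names, of miR-199a, miR-199b and miR-214, were not called, with log2 ratios from -0.44 to 0.90. Markers of striated muscle (4 of 7, 6 names) summed to 211 in R and 3795 in P, most of it miR-133, with 4 of 6 names called lower, beside the same 8.45%, and none at 0. The endothelial miR-126 (4 names) summed to 32841 in R and 21287 in P, red blood cell markers (3 of 4, 6 names, chiefly miR-486-5p) to 5580 and 8749, and white blood cell markers (3 of 4, 5 names, chiefly miR-142-5p, 2 names at 0 in P) to 7463 and 4920. Without miR-142-5p the last sums were 1774 in R and 2396 in P, the opposite order. All marker values are on the deposited scale, and dividing by clean reads adds 0.78 to each log2 ratio. The sums without miR-142-5p and the red blood cell sums would then be higher in R. The median ratio of fibroblasts and smooth muscle would be above 0, and their sums without the leading name higher in R. In that list miR-143-5p and miR-145-3p would lose their lower call, and bta-miR-199b and miR-214-3p would be called higher. The part of cell type composition in the ratios of miR-424 and miR-503 was not tested.

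Predicted targets were listed for 142 names, and miR-503-5p was the 1 cluster member among them, with 514 target identifiers of 7608. Its list ranked 85 by length, under the median of 578.5. The targets of miR-503-5p were also predicted for many other miRNAs: a target on its list was on a median of 15 lists, compared with 8 over all identifiers, and 11 of the 514 (2.14%) were on no other list, compared with 8.18% of all identifiers. An identifier on several lists is more likely to be met in any given list, so these medians are a description.

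miR-15b, with the same bases 2 to 7, shared the most targets with miR-503-5p. The 226 shared identifiers were 44.0% of the miR-503-5p list and 17.0% of the 1331 on the miR-15b list, whereas the miR-15b list held 17.5% of all identifiers. The candidate PC-5p-94605_6 followed with 127 shared (24.7% of the miR-503-5p list, 10.6% of its own) and then miR-138-5p with 126 (24.5% and 10.3%). Those lists held 15.7% and 16.1% of all identifiers. miR-15b stood 26.5 percentage points above its share of all identifiers, and the next of the 141 names, miR-335, named after its value was seen, stood 9.40 above. The median over the 141 names was 3.68 above.

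**Figure D5:**
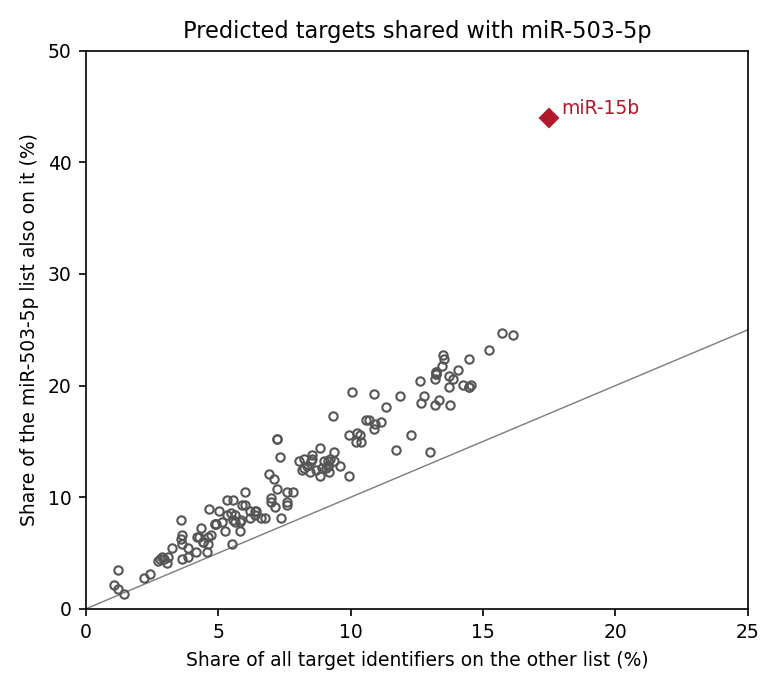
Share of the 514 miR-503-5p targets also on the list of each of 141 other names (y, percent), against the share of all 7608 identifiers on that list (x, percent); the line marks equal shares. miR-15b, at 44.0% and 17.5%, lies farthest above the line.

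By name, precursors of miR-424 or miR-322 were listed as shared with 10 of 23 species, those of miR-503 with 6, those of miR-450a with 4 and those of miR-450c with 2. Cow, dog, pig, horse, mouse and rat were listed for both miR-424 or miR-322 and miR-503. Human, chimpanzee, gorilla and Chinese hamster were listed for miR-424 or miR-322 and not for miR-503. No species was listed for miR-450b or miR-542. An absence here is an absence from this listing by name, and the genomes of these species were not searched.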

How the data were processed

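Small RNA of pooled goats was sequenced repeatedly per phase and deposited as 1 library. The authors matched filtered reads to miRBase and the goat genome and deposited a normalized signal per name and library, in which each read of a library carries 1 fixed worth. This is not the division by clean reads that their methods describe, which was run as an alternative. Dividing by that worth (0.860 in R, 1.16 in P) gave reads; 75.0% of values above 0 in R and 80.3% in P were whole within 0.01 reads, the others being fractions, and reads were rounded for exact tests. Names listed repeatedly (54) kept their listed value, with reads summed. The authors predicted targets with TargetScan and miRanda for miRNAs they called; their own fold changes and P-values, and the candidate table, were not used. Members and lists were chosen with earlier results of these data known, and the comparison of arms over 43 of 71 miRNAs, and what it leaves out, was set after values were seen. Named genes were the members, names with a member's seed, miR-450c, the 3 nearest ratios and the 3 largest target overlaps. miR-335, miR-340, miR-455, miR-195-3p and the other miRNAs named within lists were chosen after values were seen. Alternatives were 3 other scalings, other tests, filters, a pseudocount of 1 and summed names. Tests were tried on simulated data scaled by clean reads, so the trial of the calls does not cover the deposited scale. Python 3.11.15, scipy, numpy, pandas and matplotlib were used.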

Additional observations from a re-analysis of the deposited data

How the results depend on the processing

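Of 54 alternatives, 44 kept the direction and the side of the threshold, or a count within 1.5 times. Some of these 44 could not differ, such as summing entries or names where a member had 1, or rounding down whole reads. Pooling targets over names with the same sequence left the 3 overlaps unchanged. The 44 are therefore not a count of independent checks. Scaling made the changes in the remaining alternatives. With reads divided by clean reads, the log2 ratio turned to 0.47 for miR-424-5p and 0.35 for miR-503-3p, and that of miR-424-3p passed 2-fold at 1.13; 158 known names were then called higher in R and 19 lower. With reads divided by listed known reads, the ratios were 1.21, 1.09 and 1.87, and 210 names were called higher and 10 lower. Higher calls made up 69.4% of calls with the deposited values, 89.3% with clean reads, 95.5% with listed known reads and 58.8% with an exact binomial test on the deposited scale (70 higher, 49 lower). The cause was not tested beyond the change of scale itself. miR-503-5p stayed called in each of the 7 alternatives, with log2 ratios from 2.02 to 3.72, and the count of member pairs that differed was 4 in each of its 3. For miR-503-5p, summing repeated entries or names could not change the result, since it had 1 entry and 1 name. The scalings and the pseudocount changed its ratio only, with the same Fisher's exact P. Its exact binomial test on the deposited scale gave P = 3.09e-04. Rounding reads down could not change the pairs, since the members' reads were whole. For miR-424-3p the exact binomial test on the deposited scale gave P = 0.0522. No paired analysis was possible because each phase had 1 library, and leaving out a library was likewise impossible. Depth limits miR-503, with 5 reads of the 5p strand in P, and the variants of miR-424-5p and miR-450a-3p, with 3 reads and 1 read over both libraries, allow no fold.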

Other observations

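The sequence listed for the miR-450a-3p variant shared CGGGAACA with miR-503-5p, at its positions 4 to 11 and at positions 7 to 14 of miR-503-5p, the longest stretch common to members of different miRNAs. The first base of that stretch is the one its name gives as substituted, and the name rests on 1 read.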
